A study of Mus musculus with 8 samples.

Results

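CTCF and Smc3 peaks of wild-type (WT) mouse embryonic stem cells were set against each other, peak by peak. Every WT peak on the 19 numbered autosomes was taken, which gave 96324 CTCF and 46349 Smc3 peaks, together 142673 of the 254001 peaks in the 4 lists of the series. The 2435 CTCF and 932 Smc3 peaks on other chromosomes were left out. Peaks were matched when they overlapped by at least 1 bp.

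The cells were the JM8.N4 line, an embryonic stem cell line grown without feeders on gelatin in serum and LIF, and all chromatin was cross-linked with formaldehyde. WT cells were compared in the study with C59, a single knock-in clone of genotype FLAG-Halo-CTCF/Rad21-SNAPf-V5, whose tags serve to follow CTCF and the cohesin subunit Rad21 in live cells. Chromatin was precipitated with the CTCF antibody ab128873 or the Smc3 antibody A300-060A, with 1 library for each protein and line. The protocol text names an antibody against Rad21 where the sample label names Smc3, and the label was followed. Since there was 1 library per protein, no difference could be set against a spread between replicates, and no test was made. The C59 lists, with 80258 CTCF and 25400 Smc3 autosomal peaks, are used only as a repeat in another line. Peak lists carry no expression, so the cell type could not be checked by marker genes.

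CTCF is a zinc finger protein that reads an asymmetric DNA motif and marks insulators and the boundaries of chromatin loops. Smc3 is a core subunit of cohesin, the ring-shaped complex that holds sister chromatids together and extrudes loops of chromatin. Extruding cohesin is known to pause at CTCF, with a preference for one orientation of the motif, and cohesin is also loaded and found at active genes without CTCF.

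At 4 promoters the data placed the CTCF motif, the CTCF summit and the Smc3 summit within 1 short stretch of DNA, which shows the scale on which the proteins were compared. A summit is the base at which a peak is highest. The sequences are RefSeq promoter windows of GRCm38.p6, written 5′ to 3′ along the motif, with the match to a 12-letter core in capitals (CCA, any 2 bases, AG, any 2 bases, GGC).
Rplp0: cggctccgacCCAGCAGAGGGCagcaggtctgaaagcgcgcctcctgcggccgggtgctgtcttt
Gm30470: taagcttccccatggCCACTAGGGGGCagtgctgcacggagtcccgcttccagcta
Zfp638: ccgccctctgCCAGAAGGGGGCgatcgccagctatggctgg
Otop2: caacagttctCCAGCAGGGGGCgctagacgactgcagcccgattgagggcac
The Rplp0 stretch, upstream of the gene of a ribosomal stalk protein, lay at chr5:115559280-115559344 with the motif on the + strand at bases 11 to 22. The CTCF summit stood at base 55 and the Smc3 summit at base 30. At Gm30470 (chr11:79224602-79224657, + strand) the motif covered bases 16 to 27, with the CTCF summit at base 11 and the Smc3 summit at base 46. Upstream of the zinc finger gene Zfp638 (chr6:83914252-83914292, motif on the - strand) CTCF peaked at base 31 and Smc3 at base 11. Upstream of the proton channel gene Otop2 (chr11:115322475-115322526, + strand) CTCF peaked at base 12 and Smc3 at base 42. The Smc3 summit thus lay on the 5′ side of the CTCF summit at Rplp0 and Zfp638 and on the 3′ side at Gm30470 and Otop2, and was 20 to 35 bp away. These 4 promoters were picked after the data were seen, so their sides and distances are examples and not shares.

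A motif with a strong CTCF peak did not always come with Smc3. The next 4 sequences are shown for that contrast, each 30 bases long, the first with and the other three without a Smc3 peak.
Rsad1: caacagtgtCCACCAGGTGGCgccgcagac
Atp6v1d: tttagtcaaCCAAGAGAGGGCgctgtgacg
Rint1: gacatccaaCCAGCAGGGGGCgccacagaa
Ythdf2: tcctccagcCCAGCAGAGGGCgccacgggc
Rsad1 (chr11:94549279-94549308, - strand) had a CTCF pileup of 363 and a Smc3 pileup of 130. Its CTCF and Smc3 summits lay 97.5 and 107.5 bp to the 3′ side of the motif centre, beyond the printed bases. Pileup is the height of fragments stacked at the summit, as the authors deposited it. The site at Atp6v1d, a subunit gene of the vacuolar proton pump (chr12:78861805-78861834, - strand), had a CTCF pileup of 279. That at Rint1, a gene of vesicle trafficking (chr5:23787618-23787647, + strand), had 271. That at Ythdf2, which encodes a reader of methylated adenosine in RNA (chr4:132212301-132212330, - strand), had 235. Measured from the motif centre along the motif, the CTCF summit lay at -49.5 bp at Atp6v1d, -7.5 bp at Rint1 and 10.5 bp at Ythdf2. The core at Ythdf2 is letter for letter the core at Rplp0, and the core at Rint1 that at Otop2, so the same 12 letters stood under CTCF with Smc3 and under CTCF without it.

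Nearly every Smc3 peak lay on CTCF, whereas fewer than 1 CTCF peak in 2 carried Smc3. Of the Smc3 peaks, 44091 (95.1%, exact 95% Clopper-Pearson interval 94.9 to 95.3) overlapped a CTCF peak. Of the CTCF peaks, 42785 (44.4%, 44.1 to 44.7) overlapped a Smc3 peak. In C59 the shares were 97.9% and 30.4%. These intervals, like those below, cover counting error only. The lists differ in length. With the CTCF list held to its highest peaks, as many as the Smc3 list has, 82.8% of Smc3 peaks and 79.98% of CTCF peaks overlapped. Most Smc3 peaks matched 1 CTCF peak, so lists of equal length must give shares that are alike. The cut also removed the low CTCF peaks, so list length was not told apart from peak strength. An unlisted place may still hold protein below the calling threshold.

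The autosomes were alike in these shares. The share of Smc3 peaks on CTCF ran from 92.9% on chromosome 13 to 96.3% on chromosome 9. The share of CTCF peaks with Smc3 ran from 41.6% on chromosome 12 to 46.5% on chromosome 1. The local background under WT peaks, computed from pileup and fold, was 1.4 times as high on chromosome 8 as on the autosomes other than 1, 8 and 11 for CTCF and 1.5 times for Smc3. On chromosome 11 it was 1.22 and 1.25 times. Pileups of sites named on those chromosomes carry this raised background.

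Smc3 was found on CTCF in step with CTCF pileup. In the lowest decile of CTCF pileup (13 to 22) 2.83% of peaks carried Smc3, in the fifth 26.0%, in the sixth 44.9%, in the seventh 68.2% and in the highest (216 to 429) 97.1%. The C59 shares were likewise higher from each decile to the next, from 0.274% to 86.6%, and lay below the WT share in each of the 10 deciles. The C59 Smc3 list is also the shorter, with 25400 peaks against 46349 in WT, and depth is unknown. A difference between the lines in Smc3 at CTCF was therefore not tested. In the other direction, 78.2% of the Smc3 peaks in the lowest decile of Smc3 pileup (13 to 20) lay on CTCF, and 99.96% of those in the highest (83 to 323). Smc3 peaks with no CTCF peak were low and narrow, with a median pileup of 21 and a width of 318 bp, against 39 and 472 bp for those with 1 CTCF peak. Their nearest CTCF peak was a median 1584.5 bp away, and 88.8% had one within 10 kb. For CTCF peaks without Smc3 the nearest Smc3 peak was 10145 bp away in the median, and 49.6% had one within 10 kb. The CTCF list holds more peaks, which shortens distances to it, and distances from arbitrary places were not taken.

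**Figure D1:**
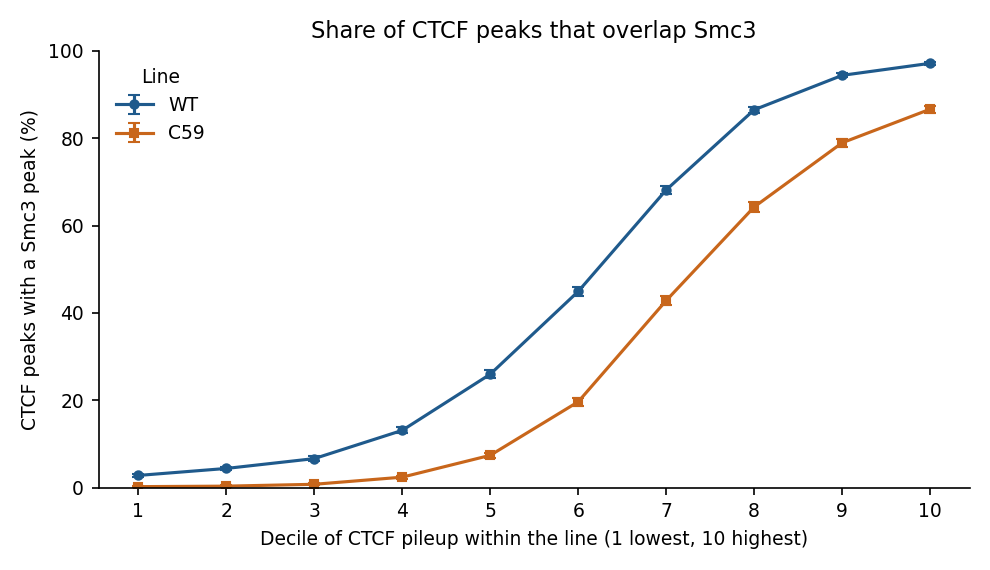
Share of autosomal CTCF peaks that overlap a Smc3 peak of the same line (y axis, %) in each decile of CTCF pileup within the line (x axis, 1 lowest), for WT and C59. Bars are exact 95% Clopper-Pearson intervals, which cover counting error only, and the WT points run from 2.83% to 97.1%, above the C59 points in every decile. The C59 Smc3 list is the shorter (25400 against 46349 peaks).

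The 1 bp rule had few peaks at its edge. Inside it, 43 Smc3 peaks overlapped CTCF by 50 bp or less, with a median pileup of 20. Outside it, 45 Smc3 peaks were separated from CTCF by less than 50 bp, with a median pileup of 21.

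Most matches were 1 Smc3 peak on 1 CTCF peak. A single CTCF peak lay under 44005 Smc3 peaks, 2 lay under 85, and 3 under 1. Smc3 peaks over more than 1 CTCF peak were wide, with a median of 1162 bp for those over 2. Several Smc3 peaks on 1 CTCF peak were more frequent than the reverse. CTCF peaks were also the wider, with list medians of 553 bp against 465 bp for Smc3. Whether 1 signal was split or neighbouring sites were joined into 1 peak was not tested. Among the CTCF peaks 41469 held 1 Smc3 peak, 1246 held 2, 63 held 3 and 7 held 4. In all, 41322 pairs (93.7% of the matched Smc3 peaks) were 1-to-1, meaning that neither peak overlapped another of the opposite list.

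The 1246 CTCF peaks with a pair of Smc3 peaks were wide, at 1688 bp in the median, and strong, at a pileup of 214. Their Smc3 summits stood 823 bp apart in the median (quartiles 632.5 and 1045.75). The CTCF summit lay within 100 bp of the nearer Smc3 summit in 1184 of them. The nearer Smc3 peak had the higher pileup in 996 (79.9%), with medians of 53 for the nearer and 29 for the farther.

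The only Smc3 peak over 3 CTCF peaks lay at Col13a1, which encodes a transmembrane collagen, on chromosome 10. It was 1702 bp wide, with a Smc3 pileup of 47, and the CTCF peak nearest its summit had a pileup of 149. Of the Smc3 peaks over 2 CTCF peaks, the widest were in Tsc22d1 (3973 bp), at the noncoding gene Zfas1 near Znfx1 (2354 bp), at the homeobox gene Dlx3 (2270 bp) and at Alyref2 (2243 bp). Their Smc3 pileups were 78, 45, 202 and 96. All 5 pileups were above the list median of 38.

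Summits of the 2 proteins lay close together and leaned to neither side. The signed distance, Smc3 minus CTCF along the chromosome, had a median of 0 bp and quartiles of -28 and 27 bp. Smc3 lay at the higher coordinate in 48.6% of pairs and at the lower in 50.0%, and 615 pairs shared a summit base. The absolute distance had a median of 27 bp (quartiles 12 and 53). It was at most 50 bp in 73.3% of pairs and at most 100 bp in 90.2%. The distance was shorter at higher Smc3 pileup, with a median of 53 bp in the lowest decile and 22 bp in the highest.

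The error of a summit could be gauged only by the same protein in the other line, which mixes error with line. At 22119 sites that were 1-to-1 in all 4 lists, Smc3 stood 23 bp from CTCF within WT (median absolute distance) and 24 bp within C59. CTCF summits of the 2 lines stood 12 bp apart, and Smc3 summits of the 2 lines 27 bp apart. The distance between the proteins was no greater than that of Smc3 from itself in the other line. That yardstick holds Smc3 summit error from both lines, whereas the distance between proteins holds it from a single line. How much of the distance was summit error was not tested. In the highest of 4 equal groups by WT Smc3 pileup the distances were 22 bp between the WT proteins, 11 bp for CTCF between lines and 23 bp for Smc3 between lines.

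**Figure D2:**
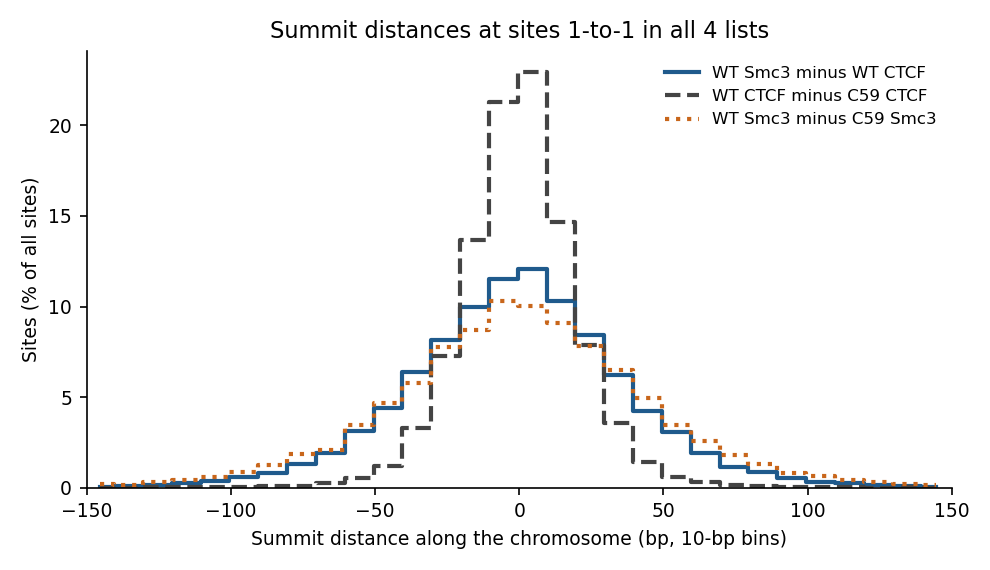
Distance between summits along the chromosome (x axis, bp in 10-bp bins) as a share of the 22119 sites that are 1-to-1 in all 4 lists (y axis, %), for WT Smc3 minus WT CTCF, CTCF between the lines and Smc3 between the lines. All 3 curves centre on 0, and the Smc3 to CTCF curve is about as broad as the Smc3 curve between lines (median absolute distances 23 and 27 bp) and broader than the CTCF curve (12 bp).

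Large offsets came back on the same side in C59. Over all such sites with a WT offset, Smc3 lay on the same side of CTCF in C59 in 56.4% (55.8 to 57.1). Where the WT offset was over 50 bp, 65.3% (63.8 to 66.8) kept the side, and where it was over 200 bp, 121 of 145 did (83.4%, 76.4 to 89.1). The C59 distance at those 145 sites had a median of 236 bp, against 416 bp in WT. At WT offsets over 50 bp the C59 median was 30 bp, against 68 bp in WT, so most of the shorter offsets were much smaller in C59. The sites were chosen by their WT distance.

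Summits lay over 200 bp apart in 2131 pairs (4.83%). In 1390 of these the CTCF peak also held another Smc3 peak. The other main class was 734 pairs that were 1-to-1, with a median Smc3 pileup of 24 and a median CTCF pileup of 72.5. The 1-to-1 pairs within 200 bp had pileups of 40 and 147. By decile of Smc3 pileup the share over 200 bp was 12.8% in the lowest and 2.29% in the highest.

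The longest 1-to-1 offset was at Neat1, the noncoding RNA that scaffolds nuclear paraspeckles. There a Smc3 peak of 4818 bp (chr19:5841016-5845833, nearest protein-coding gene Frmd8) overlapped a CTCF peak of 400 bp near its edge, and the Smc3 summit lay at -2906 bp from the CTCF summit. Both were modest, with pileups of 44 for Smc3 and 26 for CTCF. At Lrrc75a and the noncoding 2410006H16Rik on chromosome 11 the arrangement was similar, with a Smc3 peak of 2507 bp, a CTCF peak of 574 bp and an offset of -1472 bp. At Mmp15, a membrane metalloproteinase gene, and at Ajm1, a gene of epithelial junctions, it was the CTCF peak that was wide. These CTCF peaks measured 2364 and 2819 bp, the Smc3 peaks 520 and 457 bp, and the offsets were 1643 and -1452 bp. The fifth lay over the noncoding Gm31686 on chromosome 6, 282624 bp from the nearest gene end used for naming (Gm38821), and had peaks of 1735 bp for Smc3 and 2056 bp for CTCF, 1280 bp apart at the summits.

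Smc3 peaks were narrower than the CTCF peaks they lay on. In 1-to-1 pairs the median width was 471 bp for Smc3 and 797 bp for CTCF, and the median ratio was 0.625 (quartiles 0.494 and 0.775). Smc3 was the narrower in 94.0% of pairs and lay wholly inside the CTCF peak in 81.4%. CTCF reached beyond Smc3 by a median of 136 bp to the left and 135 bp to the right. The ratio was 0.548 in the lowest of 4 equal groups by Smc3 pileup and 0.745 in the highest, and it was 0.521 in C59.

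At equal pileup the order of widths was reversed. Among all autosomal peaks with a pileup of 40 to 49, Smc3 peaks had a median width of 494 bp and CTCF peaks 464 bp. At a pileup of 80 to 99 the medians were 712 and 638 bp. Width was greater at greater pileup in both lists, and within pairs the CTCF pileup was the higher one, at 146 against 39 in the median.

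Smc3 peaks wider than their CTCF peak made up 2462 of the 1-to-1 pairs. Their median Smc3 pileup was 59, against 39 in the other 1-to-1 pairs, while the CTCF pileups were alike at 144 and 146.

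Some of the widest Smc3 peaks covered long stretches of single genes and lay beside CTCF or away from it. This group was looked at after its values were seen. Of 230 Smc3 peaks of 1500 bp or more, 214 (93.0%) overlapped CTCF, beside 95.1% of the narrower Smc3 peaks, and 16 did not. A Smc3 peak of C59 overlapped 229 of the 230, beside 53.1% of the narrower peaks, and the median pileups of the wide and narrower peaks were 98.5 and 38. The widest, of 5528 bp (chr19:5794598-5800125), lay over Malat1, an abundant nuclear noncoding RNA, with a pileup of 74. It overlapped no CTCF peak, and the nearest was 560 bp away. Another Malat1 peak of 3797 bp, with a pileup of 61, followed at chr19:5800256-5804052. The second widest peak, of 5047 bp (chr7:3217621-3222667), spanned Mir290a to Mir295, the microRNA cluster typical of mouse embryonic stem cells. Its pileup was 96, and it overlapped 1 CTCF peak of 662 bp with a pileup of 167.

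The 16 wide Smc3 peaks without CTCF had a median pileup of 38.5, and 15 of them had Smc3 in C59, where the widest overlapping peak had a median of 2130 bp. None overlapped a C59 CTCF peak. Besides Malat1 they lay over Txnip, a binder of thioredoxin (3354 bp), and Hnrnpu, a nuclear RNA-binding protein gene (2873 bp). Others lay over Gas5, a noncoding host of small nucleolar RNAs (1899 bp), the ribosomal protein gene Rpl31 (2108 bp), the stress-response factor gene Atf4 (1664 bp) and the noncoding Lncenc1 (1664 bp). Further ones lay over Mog, a myelin protein gene (1902 bp), over Dipk1b (2414 bp, with a CTCF peak 33 bp away) and over no annotated gene, with Rps12 and Tprg the nearest (1862 and 1740 bp). These genes were picked from the 16 after their values were seen. The median background under the 16 was 6.79, against 7.10 under the wide peaks with CTCF and 5.26 under narrower Smc3 peaks. RNA levels were not measured here, so their relation to these peaks was not tested.

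Higher CTCF went with higher Smc3. Over the 44091 matched pairs Spearman's rho between the 2 pileups was 0.727, and over 1-to-1 pairs 0.758. Pairs are not independent, since they share the chromatin and the local background, so rho is a description. It ran from 0.686 on chromosome 18 to 0.746 on chromosome 11, and was 0.555 in C59. With fold enrichment in place of pileup it was 0.660. The range of Smc3 at a given CTCF level stayed wide. In the highest of 4 equal groups by CTCF pileup (210 to 429), Smc3 pileups ran from 28 at the 5th percentile through a median of 68 to 132 at the 95th. Within each of these groups, rho was 0.424, 0.291, 0.214 and 0.244, from lowest to highest.

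**Figure D3:**
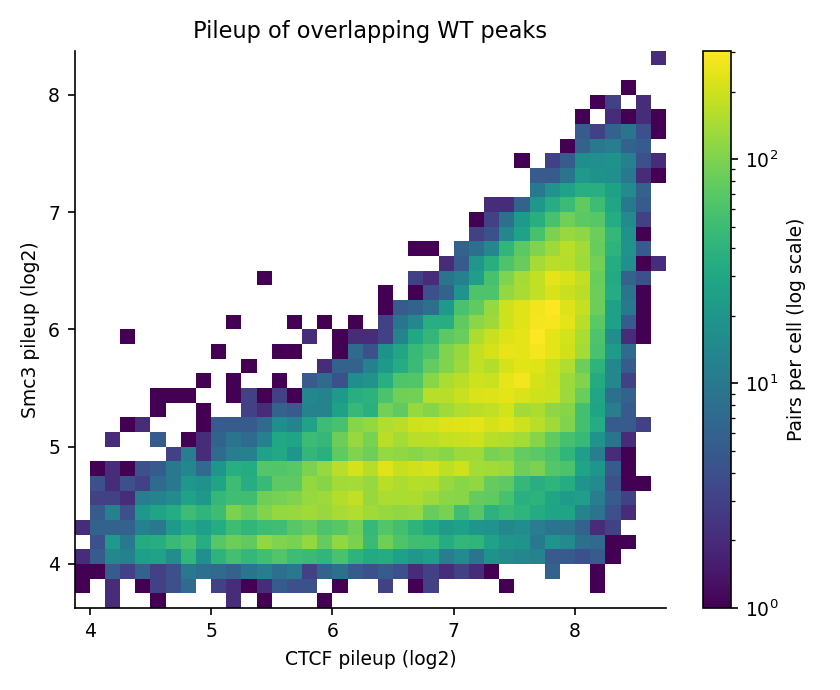
Number of overlapping WT pairs (colour, log scale) by CTCF pileup (x axis, log2) and Smc3 pileup (y axis, log2) over the 44091 matched pairs. Pairs run along a rising band (rho 0.727), and Smc3 varies widely at a given CTCF pileup. At low CTCF pileup the pairs crowd near the lowest listed Smc3 pileups, which start at 13.

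Ranks were given as percentiles among the matched pairs. In 68.6% of pairs the 2 ranks lay within 20 percentile points. Ranks over 50 points apart were lopsided, with CTCF the higher in 1101 pairs and Smc3 the higher in 123. Of the 1101, 455 had summits over 200 bp apart, against 13 of the 123. Over 1-to-1 pairs alone the numbers were 629 and 119. In C59 the split was less uneven, with CTCF the higher in 1169 pairs and Smc3 in 622.

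The pairs with CTCF ranked farthest above Smc3 were at Spry2, an inhibitor of growth factor signalling, at Traf4, an adaptor of TNF receptors, at the filament genes Synm and Krt78, and at the transcription factor gene Sox13. Their CTCF pileups were 300, 312, 287, 295 and 292, and their Smc3 pileups 14, 17, 15, 17 and 17. All 5 CTCF peaks held 2 or 3 Smc3 peaks, and the pair in question was a minor one, with offsets of -704, 611, -584, -763 and -696 bp from the CTCF summit. None had a Smc3 peak at that place in C59.

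Among the pairs with Smc3 ranked farthest above CTCF was the site at Lrrc75a. The others are named by the nearest gene end, which was that of Tbl1xr1 at 140010 bp (over the noncoding Gm31813), of Galnt1 at 22973 bp (over the noncoding Gm38565) and of Hspa1b at 6697 bp. In the order Tbl1xr1, Lrrc75a, Galnt1 and Hspa1b, Smc3 pileups were 61, 64, 68 and 58, and CTCF pileups 20, 36, 51 and 32. Smc3 was wider than CTCF at each, at 1652, 2507, 855 and 1216 bp against 250, 574, 523 and 508 bp. In C59 a Smc3 peak stood at all 4, and a CTCF peak at all but the Tbl1xr1 site.

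The highest Smc3 pileups in pairs, 323 and 306, stood in Sfi1, a centrosome gene on chromosome 11, with CTCF pileups of 404 and 403. Their folds were only 3.1 and 2.1 for Smc3, because the background there was 104 and 145. The CTCF folds were likewise low, at 3.94 and 2.71 over backgrounds of 102 and 148. Next came a site 5336 bp from Atp6v1b2, a proton pump gene (261, fold 33.7), a site in Lif (246, fold 28.6) and a site in Jph3, a junctional membrane gene (241, fold 24.97). CTCF pileups at these were 335, 375 and 371. Lif encodes the cytokine that keeps mouse embryonic stem cells undifferentiated. Its Smc3 peak of 1543 bp lay at chr11:4257949-4259491 within a CTCF peak of 1938 bp, with the summits 100 bp apart, and both were present in C59.

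The highest CTCF pileup in a pair, 429, was at Gins4, which encodes a subunit of the GINS replication complex, with a Smc3 pileup of 233. It was followed by Hjurp, the chaperone of centromeric histone H3 (422 and 97), the cytokine gene Gdf15 (417 and 159), Pgls of the pentose phosphate pathway (414 and 181) and Pik3r2, a regulatory subunit of PI3 kinase (411 and 91). Summits at these 5 sites were 3 to 21 bp apart. At Hjurp the folds were 14.2 for CTCF and 3.71 for Smc3, over a CTCF background of 28.7. All but Hjurp lie on chromosome 8.

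The highest CTCF peaks without Smc3 had pileups below those 5. The first, with a pileup of 406 and a fold of 57.4, lay at an end of Exd1, a gene of the piRNA pathway (chr2:119546716-119548028). That peak lay over Chp1 as well. Others were near Dus3l, which encodes a tRNA-modifying enzyme (346), near the ubiquitin ligase gene Rfwd3 (328), at Tmem170 (322) and at Dnajc11, a mitochondrial chaperone gene (318). The nearest Smc3 peak was 3260 to 12424 bp away. C59 had CTCF and no Smc3 at all 5.

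Strong Smc3 peaks without CTCF included histone genes. H1f3, a linker histone gene, had a Smc3 pileup of 88, and H4c9, a histone H4 gene, had 69, each with Smc3 and no CTCF in C59. Txnip had 76 and Malat1 74. The highest, 99, in Tmem267 on chromosome 13, had a fold of 1.87 over a background of 52.5 and no peak in C59.

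The place of a site in the genome went with its share of Smc3. Summits were placed within 1 kb of an annotated end of a protein-coding gene, further inside a gene, or outside genes. Smc3 peaks at gene ends lay on CTCF in 85.8% (84.8 to 86.8), against 96.7% inside genes and 95.7% outside. CTCF peaks carried Smc3 in 42.6% at gene ends, 41.0% inside genes and 48.7% outside.

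At like CTCF pileup the sites outside genes carried Smc3 most often from the fourth decile up. In the seventh decile of CTCF pileup, Smc3 was on 75.1% of CTCF peaks outside genes, 64.2% inside and 55.2% at gene ends. In the highest decile the shares were 98.8%, 96.9% and 92.5%. In the lowest the order differed, with 5.38% at gene ends, 3.11% outside and 2.09% inside. With the 10 deciles given equal weight the shares were 47.7% outside genes, 42.4% inside and 39.9% at gene ends. In C59 they were 34.2%, 28.0% and 23.9%, in the same order.

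**Figure D4:**
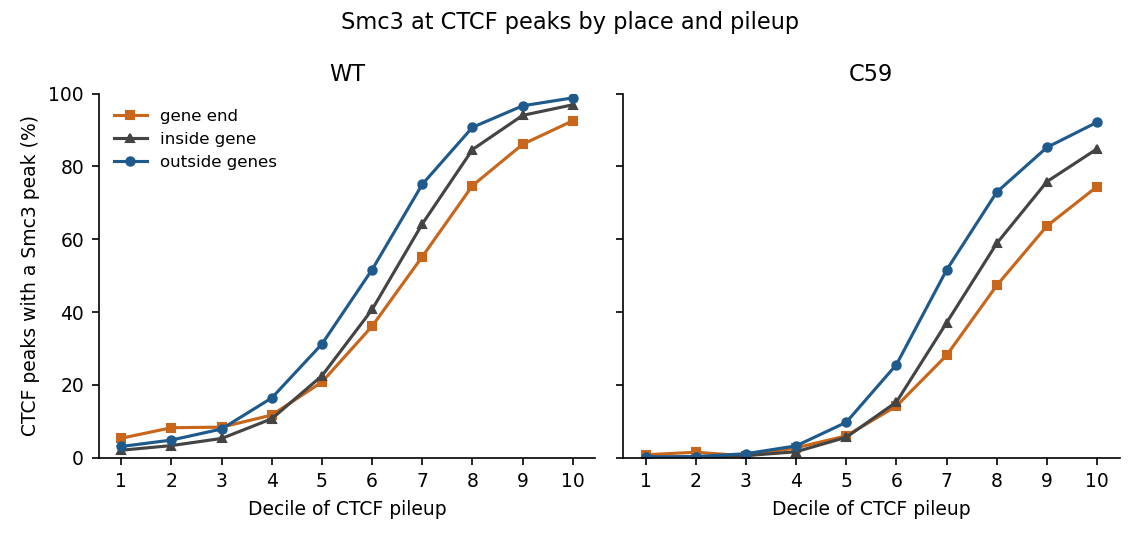
Share of CTCF peaks with a Smc3 peak (y axis, %) by decile of CTCF pileup (x axis) for sites at gene ends, inside genes and outside genes, in WT (left) and C59 (right). From the sixth decile up, sites outside genes lie highest and gene ends lowest in both lines, as in the seventh WT decile with 75.1% and 55.2%.

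Ranks of the 2 proteins shifted with distance from the nearest start site. Within 250 bp of a start the Smc3 rank lay 6.25 percentile points below the CTCF rank (median -6.25), and beyond 100 kb it lay 6.16 points above. The C59 medians were -7.15 and 8.30. In WT the median CTCF pileup of pairs was 189 near starts and 124 beyond 100 kb, while that of Smc3 was 38 and 37. Summits over 200 bp apart made up 9.38% of pairs within 250 bp of a start, 11.2% from there to 1 kb, and 2.58% beyond 100 kb.

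**Figure D5:**
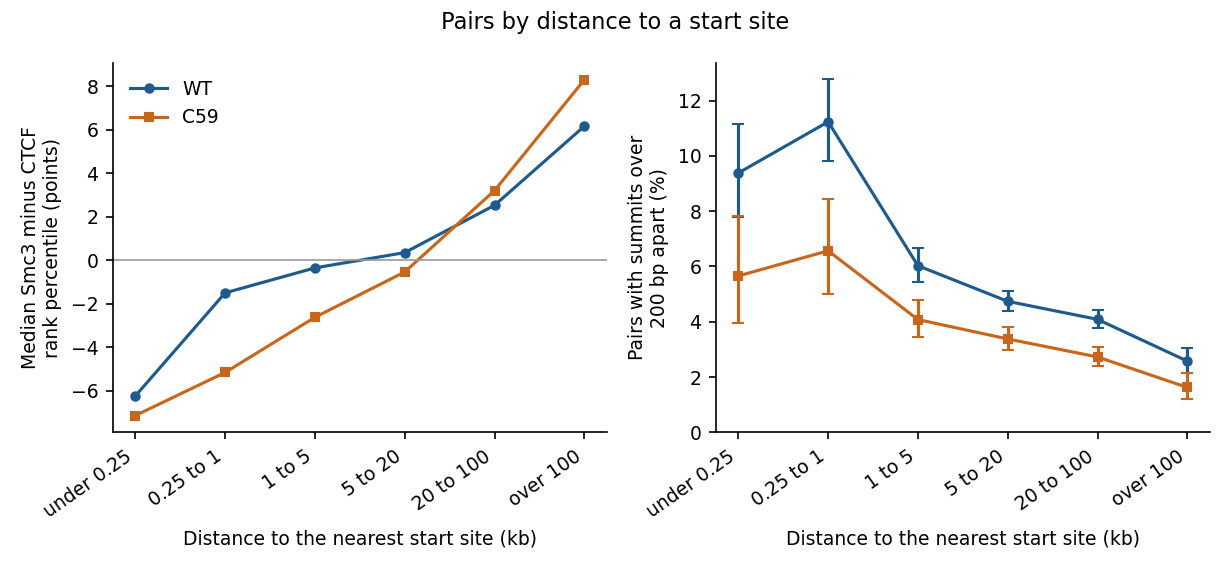
Pairs by distance to the nearest start site (x axis, kb): median Smc3 minus CTCF rank percentile (left, points) and share of pairs with summits over 200 bp apart (right, %, bars are exact 95% Clopper-Pearson intervals) for WT and C59. The WT rank difference runs from -6.25 near starts to 6.16 beyond 100 kb, and the share of wide offsets is 11.2% at 0.25 to 1 kb and 2.58% beyond 100 kb.

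Just downstream of start sites an offset along the direction of transcription was seen only under 1 of 2 ways of placing the pair. Where the Smc3 summit lay in the first 250 bp downstream of a start, it stood downstream of the CTCF summit in 60.0% of 418 pairs (55.2 to 64.8), with a median offset of 15 bp. Where the pair was placed by its CTCF summit instead, the share was 51.0% of 382 (45.9 to 56.2) and the median 1 bp. The C59 shares were 59.7% and 52.5%. The direction thus rested on which summit set the window.

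The motif was searched on both strands of the promoter windows, 300 bases each, on the 18 autosomes for which windows were at hand. On the opposite strand it reads GCC, any 2 bases, CT, any 2 bases, TGG, and no other motif was searched. Of 31365 windows, 775 (2.47%) held a match. Some windows overlap, so these 775 held only 722 different motif sites. The intervals treat each window as separate. Windows with both a CTCF and a Smc3 summit held it in 22.4% (19.7 to 25.3 of 876), those with a CTCF summit alone in 7.68% (6.33 to 9.21), those with a Smc3 summit alone in 4.31% (2.17 to 7.59) and those with neither in 1.60%. A match is a description of letters, and its absence says nothing about binding.

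Since stronger CTCF peaks hold the motif more often, the share was also taken by CTCF pileup. Only CTCF summits with 100 bp of sequence on each side were used, 814 in all. Those whose peak overlapped Smc3 held the motif within 100 bp in 98 of 442 (22.2%), and those without Smc3 in 29 of 372 (7.80%). At pileups of 70 to 202 the shares were 21.3% (15.4 to 28.3) and 4.90% (1.61 to 11.1). At 203 to 422 they were 25.5% (20.0 to 31.7) and 7.32% (1.54 to 19.9), the second over 41 peaks. At 15 to 70 they were 7.14% and 9.17%, with wide intervals. The difference with Smc3 was thus seen in the upper groups and not in the lowest. In those upper groups CTCF pileup was still higher with Smc3, at medians of 153 against 124 and 258 against 244. Pileup was thus not fully matched. Promoter windows with a CTCF summit were also grouped by pileup, with or without a Smc3 summit. Their middle group (46 to 173) held the motif in 17.1% and 9.46%, a smaller gap, and their highest in 26.2% and 8.04%.

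The cores differed in how often they lay within 100 bp of a CTCF summit. CCACCAGGGGGC occurred at 28 sites of the windows, 26 of them at a CTCF summit and 22 with Smc3 as well. CCAGCAGAGGGC, the core at Rplp0 and Ythdf2, occurred at 25, of which 23 were at CTCF and 19 with Smc3. The most frequent core, CCAGAAGAGGGC, occurred at 81, of which 39 were at CTCF and 15 with Smc3.

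The motif gives each pair a direction, and Smc3 had no clear side along it at these promoters. In 184 pairs with summits within 200 bp, Smc3 stood on the 3′ side of the CTCF summit in 54.3% (46.9 to 61.7), with a median of 6.5 bp. In C59 the share was 54.7% of 106 (44.8 to 64.4). Both intervals include 50%. The CTCF summit itself stood 7 bp to the 5′ side of the motif centre in the median (-7), on the scale of the offsets measured.

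Of 20665 protein-coding autosomal genes, 8201 (39.7%) had a CTCF summit within 1 kb of an end, 4500 (21.8%) a Smc3 summit, and 3976 (19.2%) a Smc3 summit whose peak overlapped CTCF, called a pair below. Counts for gene lists are read against these shares, with no test.

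Ribosomal protein genes had the most. Of 32, 23 had CTCF (71.9%), 23 had Smc3 and 19 a pair (59.4%), the highest shares of the 9 lists. At Rpl22 the Smc3 pileup was 121 and the CTCF pileup 336, and at Rpl3 they were 75 and 178. At Rpl13 on chromosome 8 they were 91 and 244, with the Smc3 summit at -684 bp in a CTCF peak of 3160 bp. Rps14 and Rps15 had CTCF pileups of 217 and 206 with no Smc3 at an end.

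Of 21 cell cycle and growth genes, 13 had CTCF (61.9%), 9 had Smc3 (42.9%) and 8 a pair (38.1%). Over all genes the shares were 39.7%, 21.8% and 19.2%. The tumour suppressor gene Trp53 (Smc3 157, CTCF 359) and the growth regulators Mycl (145 and 266) and Mycn (144 and 255) led them, with summits 18, 61 and -45 bp apart. At Mycn the Smc3 peak was the wider, at 1793 against 973 bp. Cdkn2a, an inhibitor of cell cycle kinases, had CTCF at 97 and no Smc3.

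Naive pluripotency genes had Smc3 often, but not as often in a pair. Of 24, 12 had CTCF, 11 had Smc3 (45.8%, beside 21.8% of all genes) and 5 a pair (20.8%, beside 19.2%). Tbx3 (35 and 104), Nodal (32 and 108) and Tfcp2l1 (25 and 88) had the highest Smc3 among the pairs. At Tbx3 and Nodal, Smc3 covered 900 and 788 bp of CTCF peaks of 967 and 927 bp. Utf1 and Klf5 had CTCF pileups of 77 and 51 and no Smc3.

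Of 19 genes of the CTCF and cohesin machinery, 10 had CTCF (52.6%, beside 39.7% of all genes). A Smc3 peak was at 4 (21.1%, beside 21.8%), all in a pair. Smc3 itself had a Smc3 pileup of 35 under a CTCF pileup of 205, with the summits 26 bp apart (-26). Esco1, the acetyltransferase of Smc3, had 33 and 282, and Wapl, which releases cohesin from DNA, 26 and 48. Pds5b, a regulator of cohesin release, and Ctcfl, a relative of CTCF, had CTCF pileups of 190 and 117 without Smc3.

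Imprinted genes had CTCF at 19 of 29 (65.5%, beside 39.7% of all genes) and Smc3 in a pair at 9 (31.0%, beside 19.2%). Kcnk9, a potassium channel gene (114 and 222), Magel2 (70 and 162) and Gnas, a G protein gene (65 and 166), led the pairs. Rasgrf1 and Ube3a had CTCF at 123 and 87 without Smc3. Of 39 Hox genes 15 had CTCF (38.5%), 9 had Smc3 (23.1%) and 8 a pair (20.5%). These shares were near those of all genes (39.7%, 21.8% and 19.2%). Hoxc5 (113 and 223), Hoxb5 (94 and 264) and Hoxb8 (90 and 224) led the Hox pairs. Hoxd10 had CTCF at 192 without Smc3.

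Genes of other lineages had pairs about as often as all genes (19.2%), with high pileups at Nes, Olig2 and Col1a1. Of 17 neural genes 7 had CTCF and 3 a pair (17.6%), with pileups of 135 for Smc3 and 219 for CTCF at Nes, a neural filament gene, and 117 and 250 at Olig2. Their summits were 0 and 6 bp apart. Of 12 fibroblast genes 6 had CTCF and 3 a pair (25%). Among them Col1a1, the collagen I gene, had pileups of 208 and 352, the highest Smc3 pileup of all listed genes in pairs. Of 18 primed and mesendoderm genes 6 had CTCF and 3 a pair (16.7%). At Mesp1 the pileups were 39 and 281. At Eomes the Smc3 summit lay at -747 bp from that of a CTCF peak of 1684 bp, with pileups of 38 and 188.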

How the data were processed

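Chromatin immunoprecipitation and sequencing of 8 libraries was described in the labels, and the 4 with a peak list (CTCF and Smc3, in WT and C59) were used. The input and IgG libraries were not used here. Per the submitters' processing notes, which give no role or order, the tools were MACS2 2.1.0.20140616, Bowtie 0.12.8, deepTools 2.4.1, FastQC 0.10.1 and CASAVA, on the build mm10. The control, threshold and duplicate filter of the peak calls are not given in the sources used here, nor is the read depth, so the precision of a single pileup is unknown. The pileup signal at each summit, the p-value and q-value, and the fold enrichment (a ratio over local background) are the authors' deposited values for each peak. Positions and lengths in bp were deposited by the authors too, counted from 1. Pileups were whole numbers in WT and not in C59, so pileups were ranked within a list.

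Overlaps of at least 1 bp, summit distances, widths and ranks were computed in pandas 2.3.3 and numpy 2.4.6 (Python 3.11.15), intervals in scipy 1.17.1 and figures in matplotlib 3.10.9. Overlap code was tested on simulated peaks. A Smc3 peak with several CTCF peaks was paired with the nearest summit. Background was pileup plus 1, divided by fold, minus 1. Gene positions and promoter windows came from RefSeq tables of GRCm38.p6, which shares the chromosomes of mm10. Of 219 listed symbols 211 were protein-coding and autosomal in the table, and the others (Smc1a, Stag2, Hdac8, H19, Kcnq1ot1, Meg3, Nespas and Peg13) were left out. The members and gene lists were chosen with earlier results of these data known. Sites were named by rule: the 5 pairs with the highest Smc3 and CTCF pileup, the largest 1-to-1 summit distance and the largest rank difference each way, the 5 highest peaks of each protein without the other, and the 5 Smc3 peaks over most CTCF peaks. From each list up to 3 genes with a pair and up to 2 with CTCF alone were eligible. 1 site so named is not reported here. Wide Smc3 peaks, the promoters whose sequences are printed and the comparison by pileup decile and place were added after the data were seen. Alternatives covered the overlap rule, the q threshold, list length, the chromosomes and the pairing.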

Additional observations from a re-analysis of the deposited data

How the results depend on the processing

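No paired analysis was possible because each group had 1 library. The median signed distance stayed between -1 and 0 bp under all 9 alternatives. Asking for an overlap of 50% of both peaks gave 66.0% of Smc3 and 31.8% of CTCF peaks shared, 26 bp, 1.20% over 200 bp, a width ratio of 0.694, 0 peaks of either protein with 2 or more of the other, and rho 0.826. Asking for summits within 200 bp gave 90.5%, 43.6%, 26 bp, a ratio of 0.618, 0 such Smc3 and 2 such CTCF peaks, and rho 0.755. With -log10 q of at least 10 the values were 99.4%, 38.5%, 24 bp, 3.07%, 0.658, 38 and 624 peaks, and rho 0.641. With the CTCF list cut to the length of the Smc3 list they were 82.8%, 79.98%, 26 bp, 4.63%, 0.615, 23 such Smc3 peaks and rho 0.648. C59 gave 97.9%, 30.4%, 24 bp, 3.19%, 0.521, 15 and 485 peaks, and rho 0.555. The 1-to-1 pairs alone gave 26 bp, 1.78% and rho 0.758. Without chromosomes 1, 8 and 11 rho was 0.719, and with fold in place of pileup 0.660. All chromosomes, and the highest CTCF peak in place of the nearest, moved no value beyond its interval. The share of CTCF peaks with Smc3 thus ran from 30.4% to 79.98% with the lists and the rule. Depth is unknown, and each share depends on the authors' threshold. For the values that moved, the cause was not tested.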
